A study of Mus musculus with 18 samples.

Results

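The genes described here are 40 members of glycolysis and of the response to low oxygen, chosen by name from the 50949 gene symbols listed over the tables of the series. They comprise 4 transporters of glucose and lactate, 17 glycolytic enzymes, 4 genes of pyruvate use and acid handling, 7 hypoxia-inducible factor (HIF) genes and regulators, 5 genes of stress and mitophagy and 3 genes of secreted peptide and matrix synthesis. All 40 were listed in each of the 3 bulk tables and in the 10x table. The Drop-seq library listed 38, and Aldoa and Car12 were not analysed there. The series compared mouse gliomas that carry different drivers and asked what inhibition of CSF1R, a receptor that macrophages and microglia need to survive, does to them.

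The 18 libraries, all labelled as strain Boy/J, fall into 8 groups. Ras tumours carried HRasV12 together with a dominant negative p53. Their hosts received vehicle (n = 4, which also bear the treatment label untreated) or PLX3397 (n = 4) at 100 mg/kg by daily gavage, from day 7 after implantation until the mice were moribund. PLX3397 is a small-molecule CSF1R inhibitor that also acts on KIT and FLT3. CD11b-positive cells, a magnetic-bead selection of myeloid cells after perfusion and enzymatic dissociation at 37 °C, came from tumours driven by PDGFB, whose hosts had been given PLX3397 at the same dose (n = 2) or vehicle (n = 1) for 3 days from day 14. Ras lines (n = 2) were grown without serum in EGF and FGF, and PDGF lines (n = 3) in EGF, FGF, PDGF-BB and PDGF-AA with B27 and N2 supplements, each factor at 20 ng/mL, so the medium and the driver cannot be told apart. A Ras tumour was also profiled by 10x (n = 1, dissociated with collagenase at 37 °C) and by Drop-seq (n = 1).

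Glycolysis splits glucose to pyruvate in the cytosol, and lactate dehydrogenase turns pyruvate into lactate, which monocarboxylate transporters carry across the membrane. When oxygen is low, prolyl hydroxylases no longer mark HIF-α subunits for destruction, and HIF dimers bind a short core motif near genes such as those for glucose transporters, glycolytic enzymes, carbonic anhydrase IX and BNIP3. In gliomas these genes are known for high levels beside necrosis and in poorly perfused tissue, and myeloid cells use glycolysis strongly when they are activated.

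Ras tumour libraries held 31.2 to 35.8 M counts (M: units of 1e6), those of CD11b-positive cells 26.8 to 30.9 M and line libraries 31.9 to 35.8 M. Levels below are counts per M of the library's assigned counts (CPM). Counts of the members made up 0.986% to 1.46% of a Ras tumour library and 0.623% to 1.77% of a line library. Whether the lines of a group come from separate tumours is not stated in the labels, so p-values there measure only the spread between these libraries, which may be technical.

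RefSeq promoter windows (build GRCm38.p6, 250 bases before to 50 after a gene start) were searched for the core letters of the HIF response element, ACGTG or GCGTG, on both strands. On the opposite strand these read CACGT and CACGC, and the palindrome CACGTG counts for both strands. A window was given for 36 of the 40 members. Of these 36 genes, 32 (88.9%) held a match in at least 1 window, against 46.7% of 27025 genes in the whole table. Some genes had more than 1 window, and per window the shares were 76.9% of 52 member windows and 43.8% of 32851. For ACGTG alone the shares of genes were 69.4% and 21.8%, and those of windows 55.8% and 19.6%. Member windows also held more CpG dinucleotides than all windows, with a median of 22 against 7. The motif contains a CpG, so members and all genes differ in base composition too. No match was found in the windows of Gpi1, Tpi1, Eno2 and Car12. Slc2a3, Epas1, Bnip3l and Ndrg1 had no window.

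The bases before the start are shown for 6 members that recur in the comparisons below, 5′ to 3′ on the strand of the gene, with the matches in capitals, to show how different the promoters of genes with one shared response are. The windows lie at chr4:119108495-119108744 (plus strand) for Slc2a1, chr6:82774455-82774704 (minus strand) for Hk2 and chr7:46845554-46845803 (plus strand) for Ldha. Those of Car9, Egln3 and Bnip3 lie at chr4:43506776-43507025 (plus strand), chr12:54203875-54204124 (minus strand) and chr7:138909507-138909756 (minus strand).
Slc2a1: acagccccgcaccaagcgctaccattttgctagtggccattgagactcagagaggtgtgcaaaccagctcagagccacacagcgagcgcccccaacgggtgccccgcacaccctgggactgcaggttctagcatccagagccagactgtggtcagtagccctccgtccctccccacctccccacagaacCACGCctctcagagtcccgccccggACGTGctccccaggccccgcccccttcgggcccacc
Hk2: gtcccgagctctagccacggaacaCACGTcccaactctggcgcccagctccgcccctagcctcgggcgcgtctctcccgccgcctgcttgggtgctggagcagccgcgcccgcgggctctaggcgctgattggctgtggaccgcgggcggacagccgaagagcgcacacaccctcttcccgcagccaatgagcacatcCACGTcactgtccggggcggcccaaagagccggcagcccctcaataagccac
Ldha: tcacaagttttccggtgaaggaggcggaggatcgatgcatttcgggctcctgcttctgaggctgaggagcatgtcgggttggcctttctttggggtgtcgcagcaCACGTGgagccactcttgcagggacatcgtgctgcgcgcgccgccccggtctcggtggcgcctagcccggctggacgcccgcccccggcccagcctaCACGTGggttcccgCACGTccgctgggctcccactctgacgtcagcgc
Car9: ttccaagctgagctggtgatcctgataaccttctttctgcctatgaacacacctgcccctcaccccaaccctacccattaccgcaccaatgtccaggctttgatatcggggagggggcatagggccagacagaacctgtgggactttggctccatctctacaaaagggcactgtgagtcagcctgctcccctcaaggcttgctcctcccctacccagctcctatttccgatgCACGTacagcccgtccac
Egln3: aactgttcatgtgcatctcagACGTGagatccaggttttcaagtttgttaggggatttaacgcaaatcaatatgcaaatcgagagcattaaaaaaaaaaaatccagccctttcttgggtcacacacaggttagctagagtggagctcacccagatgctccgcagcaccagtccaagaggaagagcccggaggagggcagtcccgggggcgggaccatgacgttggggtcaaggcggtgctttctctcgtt
Bnip3: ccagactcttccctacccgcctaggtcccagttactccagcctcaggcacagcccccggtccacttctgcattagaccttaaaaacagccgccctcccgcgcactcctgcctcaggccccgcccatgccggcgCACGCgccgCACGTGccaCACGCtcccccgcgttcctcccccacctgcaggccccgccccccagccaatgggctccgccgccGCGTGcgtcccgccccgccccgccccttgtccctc

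The shown windows of Ldha and Bnip3 held 5 matches each, those of Slc2a1 and Hk2 held 2, and those of Car9 and Egln3 held 1. The palindrome appears in capitals at 2 places of the shown Ldha window and at 1 place of the Bnip3 window. Where a gene had more than 1 window, that with the most matches is shown. This applied to Ldha, whose other window, at chr7:46846832-46847131 (plus strand), held 2 matches. Such a match is a description of sequence and not evidence of binding in these samples.

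In the Ras tumours, none of the members passed the test of PLX3397 against vehicle, and for each of them the libraries of the treatments overlapped. Of 18366 genes tested with edgeR's quasi-likelihood test, 0 (0%) passed an adjusted p of 0.05, and so 0 of 40 members did. The smallest adjusted p of any gene was 0.0722. At an unadjusted p under 0.05 stood 648 genes (3.53%) and 0 members. The groups did not overlap for 0 members, against 0.599% of all genes higher and 1.70% lower under PLX3397. Log2 folds of PLX3397 over vehicle ran from -0.46 for Ddit4 to 0.65 for Adm, 39 of 40 lay within 0.5 of 0, and their median was 0.047 against 0.0015 over all genes. That median was 0.24 without vehicle library 4 and 0.14 without PLX3397 library 2, and it turned negative without vehicle library 2 (-0.021), PLX3397 library 3 (-0.024) or PLX3397 library 4 (-0.068). It was 0.11 without PLX3397 library 1, 0.022 without vehicle library 1 and 0.025 without vehicle library 3. Above 0 stood 28 members (50.3% of all genes did). In bulk tumours, fewer cells of a type and less RNA per cell cannot be told apart.

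Slc2a1, the glucose transporter GLUT1, stood at 314, 322, 353 and 437 CPM in the 4 vehicle tumours. In the 4 PLX3397 tumours it stood at 232, 328, 443 and 444 CPM. The groups overlapped, and the log2 fold was -0.02 (SE 0.24, edgeR adjusted p = 0.9998). Slc2a3, the transporter GLUT3 of neurons, averaged 93.6 ± 15.4 CPM in vehicle tumours and 108 ± 16.5 CPM in PLX3397 tumours (SD, n = 4 each), and its log2 fold was 0.17 (SE 0.18).

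Hk2, the hexokinase that rises in many tumours, stood at 93.3, 50.7, 74.9 and 93.3 CPM under vehicle and at 60.6, 56.7, 81.4 and 85.6 CPM under PLX3397. Its log2 fold was -0.17 (SE 0.25), and the groups overlapped. Hk1, the hexokinase found in most tissues, had the smallest unadjusted p of the members, 0.191. It averaged 340 ± 24.3 CPM under vehicle and 386 ± 25.6 CPM under PLX3397, and its log2 fold of 0.15 (SE 0.11) was among the most precise. Ldha, the dehydrogenase subunit that favours lactate, stood at 613, 459, 640 and 967 CPM under vehicle. Under PLX3397 it stood at 465, 527, 886 and 980 CPM, so that each group held both low and high libraries and the log2 fold was 0.05 (SE 0.33). Ldhb, the subunit of oxidative tissue, went the other way within groups, with 64.7, 153, 127 and 17.6 CPM under vehicle and 246, 102, 53.4 and 94.1 CPM under PLX3397. Pfkm, the muscle form of phosphofructokinase that neurons also use, averaged 94.3 ± 45.3 CPM under vehicle and 121 ± 63.5 under PLX3397.

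Car9, the membrane carbonic anhydrase that is a classic mark of hypoxia, stood at 14.5, 11.9, 25.6 and 101 CPM under vehicle and at 11.4, 18.2, 43.2 and 50 CPM under PLX3397. Its log2 fold of -0.40 (SE 0.79) turned to 0.88 without vehicle library 4. Bnip3, which tags mitochondria for removal, stood at 80.0, 83.1, 111 and 221 CPM under vehicle and at 92.1, 90.9, 178 and 212 CPM under PLX3397, with a log2 fold of 0.16 (SE 0.44). Ndrg1, a stress gene that myelinating glia also use, had 335 CPM in vehicle library 4 and 93.1 to 159 CPM in the other 7 tumours. Its log2 fold of -0.39 (SE 0.43) turned to 0.30 without that library. Ddit4, an inhibitor of mTORC1 signalling, averaged 78.1 ± 34.3 CPM under vehicle and 59.1 ± 18.7 CPM under PLX3397.

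Adm, the vasodilator peptide adrenomedullin, stood at 20.3, 26.1, 36 and 33.6 CPM under vehicle and at 18.6, 21.7, 63.3 and 82.8 CPM under PLX3397. Its log2 fold of 0.65 (SE 0.50) rests on PLX3397 libraries 3 and 4, while libraries 1 and 2 stood at the vehicle level or under it. Hif1a, the HIF subunit found in most cells, averaged 275 ± 31.9 CPM under vehicle and 302 ± 84.7 CPM under PLX3397. Epas1, which encodes HIF-2α and is high in endothelium, averaged 80.0 ± 39.7 and 81.3 ± 20.5 CPM.

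Where pairs of genes serve the same step, their ratio was tested with a two-sided exact permutation test over the 8 tumours, whose smallest possible p is 0.0286. On the log2 scale the ratio under PLX3397 differed from vehicle by -0.22 for Slc2a1 over Slc2a3, -0.30 for Hk2 over Hk1, -0.90 for Eno1 over Eno2, -0.56 for Ldha over Ldhb and -0.17 for Slc16a3 over Slc16a1. Adjusted over the 5 pairs, each had an exact permutation p of 0.743, and the last 3 turned sign without vehicle library 4.

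**Figure D1:**
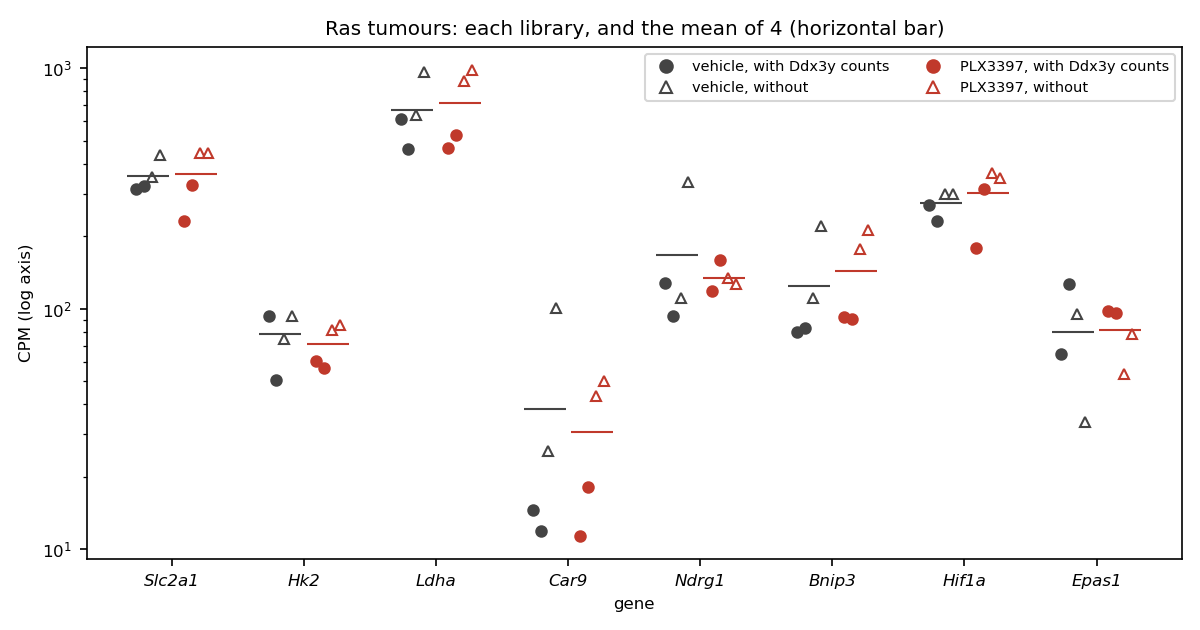
CPM of 8 members (log axis) in each of the 4 vehicle and 4 PLX3397 Ras tumours, with a horizontal bar at the mean of 4. Filled circles are libraries with counts of the Y-linked gene Ddx3y and open triangles those without, and for Car9 the triangle of vehicle library 4 stands at 101 CPM above all others.

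The members varied together between tumours of the same treatment. Vehicle library 4 was the highest of the 8 for 18 of 40 members (15.9% of all genes were highest there), and PLX3397 library 4 for 10 (6.31% of all genes). PLX3397 library 1 was the lowest for 13 members (19.7% of all genes). It was the highest for 4 members, among them Eno2, the neuronal enolase, with 499 CPM against 100 to 143 in the other 3 PLX3397 tumours.

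Ddx3y, a gene of the Y chromosome, was counted at 19.5 and 26.8 CPM in vehicle libraries 1 and 2 and at 33.2 and 21.2 CPM in PLX3397 libraries 1 and 2. It was at or near 0 in the other 4 libraries (at most 0.124 CPM), so that each treatment held 2 libraries of each kind. In all 4 libraries without Ddx3y, 17 of 40 members were higher than in any of the 4 with it (8.22% of all genes were), and 0 members were lower (5.40% of all genes). The 17 were Slc2a1, Slc16a3, Gpi1, Pfkl, Pgk1, Pgam1, Ldha, Pdk1, Pdk3, Car9, Egln1, Ankrd37, Kdm3a, Mxi1, Bnip3, Adm and P4ha2. Slc16a3, the lactate exporter MCT4, showed the split with 34.4 to 57.7 CPM in the 4 libraries with Ddx3y and 70.1 to 127 CPM in those without. This split was noticed in the data and given no test. The median of PLX3397 minus vehicle over the members was 0.017 on the log2 scale among the libraries with Ddx3y and 0.17 among those without, and 19 members had opposite signs in the 2 sets.

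Summed marker levels also differed between libraries. For neurons, astrocytes and oligodendrocytes, the libraries with and without Ddx3y overlapped. The summed level of 8 neuron markers was lowest in vehicle library 4 at 234 CPM, and 1056 to 3691 CPM in the other 7. Astrocyte markers (8) summed to 414 CPM there and to 1258 to 3652 CPM elsewhere, and oligodendrocyte markers (7) to 56.0 CPM and to 322 to 1679 CPM. All 3 sums were highest in PLX3397 library 1. Their part in the members' values was not tested. Markers of monocyte-derived macrophages (11) summed to 802 to 1355 CPM under vehicle and to 250 to 741 CPM under PLX3397, without overlap between the groups, while microglial markers (10) overlapped at 366 to 742 CPM and 189 to 617 CPM.

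**Figure D2:**
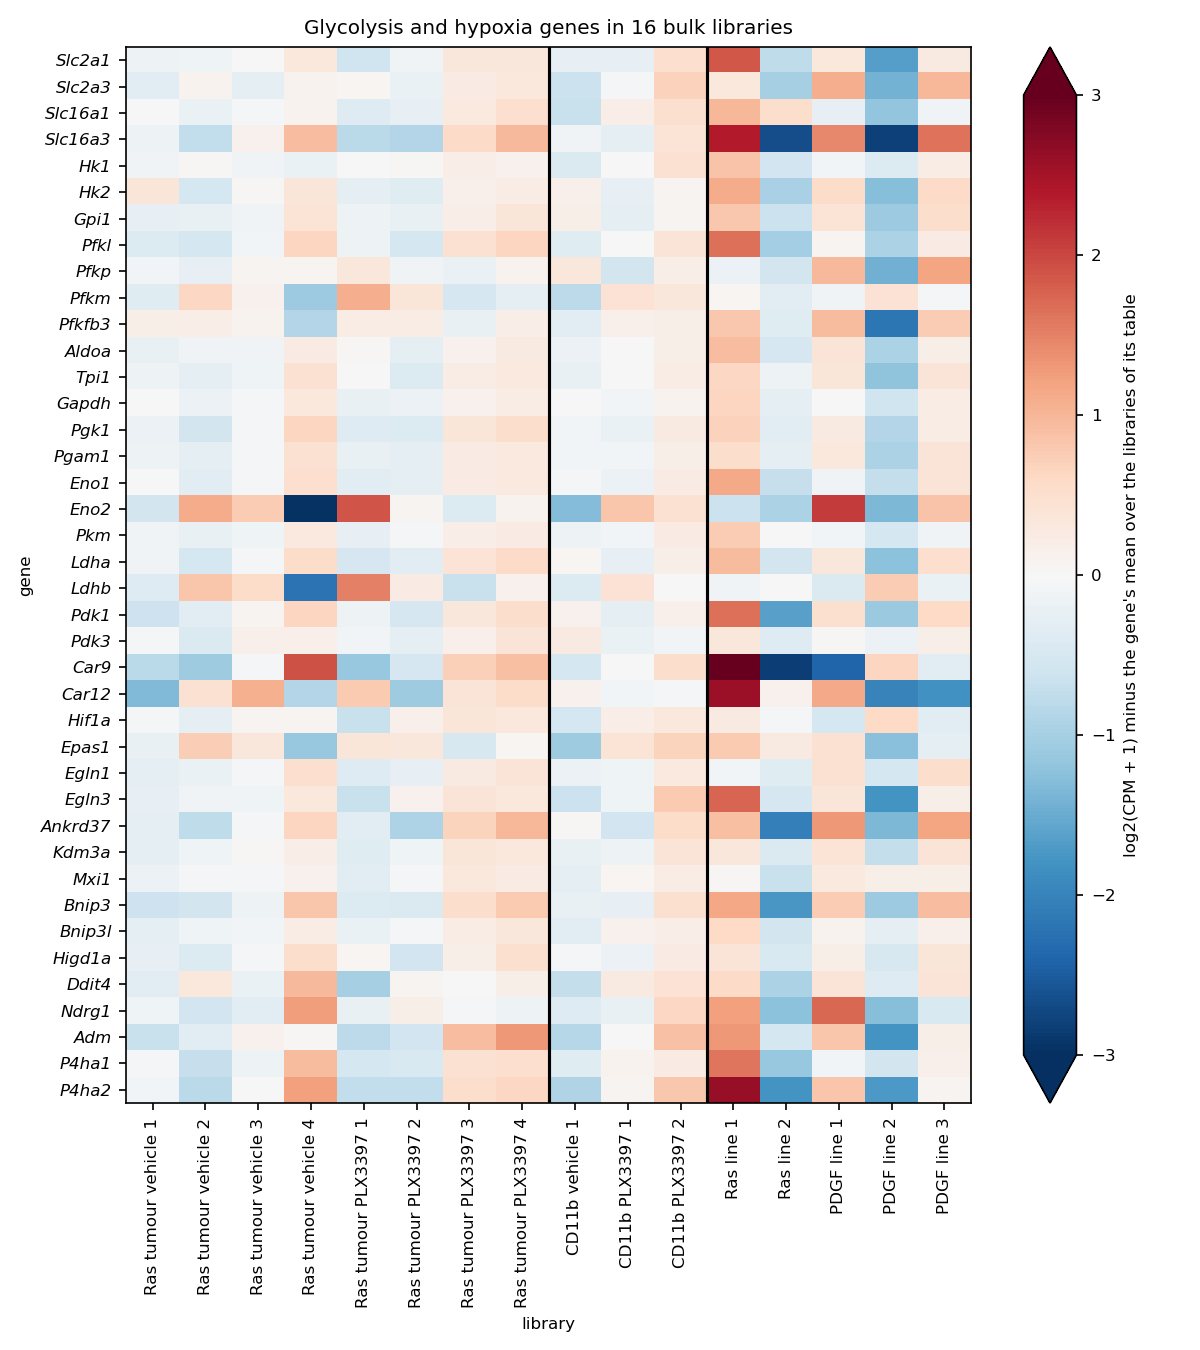
Heat map of the 40 members (rows, ordered by role) in the 16 bulk libraries (columns, by group), coloured by log2(CPM + 1) minus the mean of that gene within its own table. Vehicle library 4, Ras line 1 and PDGF line 2 stand out from the other columns of their groups, and in vehicle library 4 the genes Eno2, Ldhb and Pfkm go against most rows.

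For genes of the same pathways that are no members, fixed as lists by name, 0 of 18 tested further glycolysis genes, 0 of 30 further hypoxia genes, 0 of 7 pentose phosphate genes and 0 of 22 genes of the tricarboxylic acid (TCA) cycle and respiration passed the test in the Ras tumours.

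Levels between members can be compared only per length of exon. The length used merged the exons of all annotated transcripts of a gene, 4.133 kb for Gapdh and 5.001 kb for Pkm. It can exceed the length of the RNA present, so the order below depends on the annotation too. Per kilobase (kb) of GENCODE exons, the vehicle tumours held Pkm, the last ATP-yielding enzyme, at 344 ± 57.4 CPM per kb and Gapdh at 290 ± 44.6 CPM per kb (SD, n = 4). Below these stood Pgk1 at 229 ± 85.4, Eno1 at 219 ± 54.9 and Ldha at 202 ± 64.5 CPM per kb, 3 neighbours that overlap in the same way, and farther down Slc2a1 at 102 ± 16. At the lower end were Hk2 at 13.1 ± 3.39 CPM per kb and Car12, another membrane carbonic anhydrase, at 0.622 ± 0.540 CPM per kb. The ranges of 1 SD of Pkm and Gapdh overlap, so these neighbours are not ordered beyond their spread. Aldoa was left out of this order because 2 GENCODE entries carry its symbol.

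In CD11b-positive cells of PDGFB tumours, 4 members were higher after 3 days of PLX3397 than in the vehicle library and none of the 39 tested was lower. They were Epas1, Eno2, Pfkm and Ddit4, which makes 4 of 39 called higher against 4.57% of 15052 genes, and 0 of 39 called lower against 1.78%. Car12 was under the filter on low counts, at 0.0373 to 0.194 CPM. At an unadjusted p under 0.05 stood 13 members, a share of 33.3% next to 29.3% of all genes. Above 0 stood 32 members (50.5% of all genes), and the median log2 fold was 0.35 against 0.0066 over all genes. Without PLX3397 library 2 that median was 0.12, and without library 1 it was 0.48. Both PLX3397 libraries were above the vehicle library for 24 members (46.6% of all genes) and below it for 4 (36.4%). The test had 1 residual degree of freedom and took the spread of the PLX3397 pair to hold for the single vehicle library as well.

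For Epas1 the vehicle library held 24.4 CPM and the PLX3397 libraries held 69.9 and 82.9 CPM. It rose 2.99-fold (log2 fold 1.58, SE 0.19, edgeR adjusted p = 0.0345). Eno2 rose from 1.30 CPM to 9.08 and 6.79 CPM (log2 fold 2.55, SE 0.41, edgeR adjusted p = 0.0437), at low levels throughout. Pfkm rose from 12.4 CPM to 30.2 and 28.2 CPM (log2 fold 1.17, SE 0.19, edgeR adjusted p = 0.0440). Ddit4 rose from 60.3 CPM to 119 and 134 CPM (log2 fold 1.01, SE 0.16, edgeR adjusted p = 0.0440). A call here favours genes whose PLX3397 libraries lie close together and away from the vehicle library. That pattern is therefore no separate support for these calls.

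Among the transporters, Slc16a1, which encodes the lactate and pyruvate carrier MCT1, averaged 58.7 ± 8.41 CPM under PLX3397 (SD, n = 2) and stood at 28.7 CPM under vehicle, just outside the threshold (log2 fold 0.97, edgeR adjusted p = 0.0561). Slc2a1 averaged 264 ± 96.0 CPM against 198 CPM (log2 fold 0.35, SE 0.34), with 1 PLX3397 library below the vehicle value. Of the glycolytic enzymes, 2 of 17 rose, Pfkm and Eno2, and the median log2 fold of the 17 was 0.19. Ldha averaged 754 ± 156 CPM against 799 CPM (log2 fold -0.15, SE 0.25). Pfkp, the platelet form of phosphofructokinase, had the lowest log2 fold of the members, -0.52.

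All 7 HIF genes and regulators had log2 folds above 0, the lowest of them 0.0017, and Epas1 was the 1 that passed the test. Ankrd37 stood at 5.08 and 12.3 CPM under PLX3397, on either side of 8.29 CPM under vehicle. Hif1a stood at 373 CPM under vehicle and at 617 and 668 CPM under PLX3397 (log2 fold 0.72, SE 0.19, edgeR adjusted p = 0.0922). Car9 averaged 16.6 ± 4.37 CPM against 9.04 CPM (log2 fold 0.81, edgeR adjusted p = 0.169), and Bnip3 147 ± 50.7 CPM against 112 CPM (log2 fold 0.33, edgeR adjusted p = 0.554). P4ha2, a prolyl hydroxylase of collagen, averaged 29.3 ± 10.7 CPM against 10.6 CPM (log2 fold 1.40, edgeR adjusted p = 0.0977), and Adm 27.9 ± 12.1 CPM against 10.3 CPM (log2 fold 1.37, edgeR adjusted p = 0.129).

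**Figure D3:**
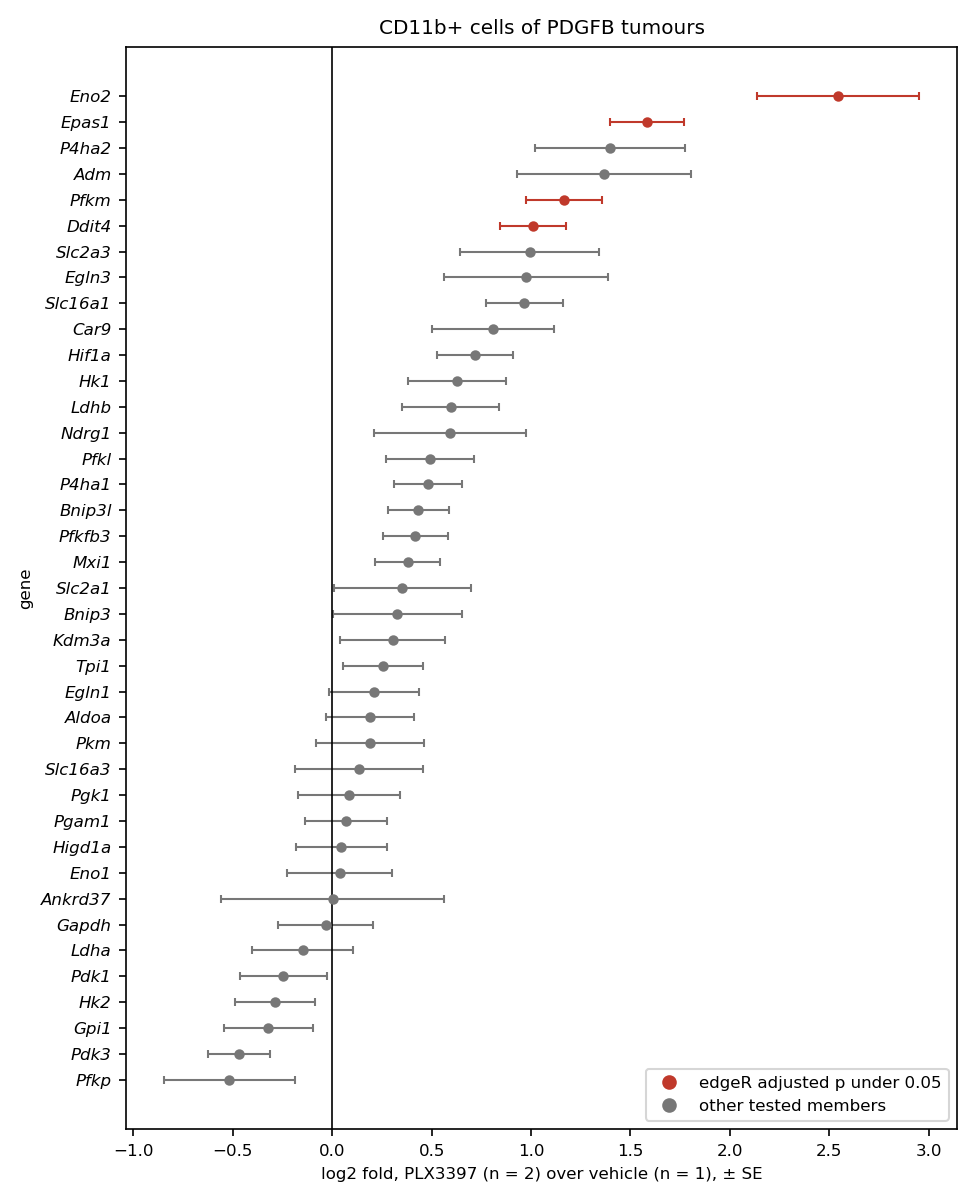
Log2 fold of PLX3397 (n = 2) over vehicle (n = 1) in CD11b-positive cells for the 39 members tested, with bars of 1 SE of the edgeR fit. Red points mark the 4 members that passed the adjusted threshold, and Eno2 lies farthest to the right at 2.55.

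PLX3397 library 2 was the highest of the 3 for 32 of 40 members (34.5% of all genes). Summed marker levels of several other cell types were also higher under PLX3397. Markers of neural progenitors or glioma cells (12 listed) summed to 115 CPM in the vehicle library and to 391 and 442 CPM under PLX3397, all 12 had folds above 0, and 6 rose: Sox2, Sox9, Olig1, Olig2, Ptprz1 and Gpm6a. Astrocyte markers summed to 96.0 CPM and then to 671 and 635 CPM, neuron markers to 24.6 CPM and then to 116 and 122 CPM, and fibroblast markers to 173 CPM and then to 623 and 1180 CPM. Endothelial markers summed to 198 CPM and then to 256 and 432 CPM. Of myeloid cells, dendritic cell markers summed to 124 CPM and then to 254 and 375 CPM, with 7 of 7 folds above 0, and neutrophil markers to 559 CPM and then to 585 and 938 CPM, with 7 of 8 above 0. Erythroid markers went the other way, from 29.2 CPM to 2.50 and 15.6 CPM. Microglial markers stood far above these at 3358 CPM and at 3484 and 2622 CPM. Of their folds, 8 of 10 were below 0, and Siglech fell. Markers of monocyte-derived macrophages also stood far above, at 6717 CPM and at 6176 and 6258 CPM, with 7 of 11 folds below 0. The part of these cells in the members' values was not tested.

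Among the further hypoxia genes, Arnt2, a neural partner of HIF-like factors, rose in the CD11b-positive cells (log2 fold 1.75, edgeR adjusted p = 0.0349). Of the further glycolysis genes, 1 of 18 rose, Aldoc, the aldolase of astrocytes (log2 fold 1.40, edgeR adjusted p = 0.0345). Pentose phosphate genes passed the test in 0 of 7 cases and had folds below 0 in 7 of 7. Genes of the TCA cycle and respiration passed in 0 of 22 and had folds below 0 in 21 of 22.

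Between Ras and PDGF lines, 0 of 40 members passed the test, as did 0 (0%) of 17475 genes, of which the smallest adjusted p was 0.120. At an unadjusted p under 0.05 stood 1 member and 16.3% of all genes. That member was Slc16a1, with 147 and 107 CPM in the Ras lines and 62.1, 32.0 and 67.9 CPM in the PDGF lines (log2 fold 1.31, SE 0.39, edgeR adjusted p = 0.245). Its groups did not overlap, nor did those of Pkm, with 2281 and 1337 CPM against 1268, 936 and 1248 CPM, which makes 2 members higher in the Ras lines (15.5% of all genes). Mxi1, a MAX-binding antagonist of MYC, was the 1 member lower without overlap (22.2% of all genes), with 110 and 66.8 CPM against 131, 122 and 122 CPM. Above 0 stood 30 members (50.9% of all genes), with a median log2 fold of 0.37 against 0.014 over all genes.

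The members differed widely between lines of the same driver. Ras line 1 was above Ras line 2 for 39 of 40 members (42.1% of all genes), by at least 2-fold for 23 (11.4% of all genes), with 1 CPM added to each value before the division. The median of these ratios was 2.57 over the members and 0.920 over all genes. PDGF line 2 stood below the other PDGF lines in the same way. PDGF line 1 was at least 2-fold above it for 24 members (5.19% of all genes) and PDGF line 3 for 24 (5.02%). Between PDGF lines 1 and 3, a 2-fold difference was seen for 3 members in 1 direction and 1 in the other. The members took 1.77% of counts in Ras line 1 and 0.735% in Ras line 2, and 1.15%, 0.623% and 1.20% in PDGF lines 1, 2 and 3. Marker levels differed between the Ras lines as well. Neural progenitor or glioma markers (13) summed to 1930 CPM in Ras line 1 and 7989 CPM in Ras line 2, against 6958 to 8576 CPM in the PDGF lines. Astrocyte markers (8) summed to 321 and 1148 CPM in Ras lines 1 and 2, fibroblast markers (6) to 103 and 1.13 CPM and pericyte markers (7) to 173 and 73.1 CPM. Among the PDGF lines, astrocyte markers were lowest in line 2, at 220 CPM against 564 and 643 CPM. The part of these differences in the members' values was not tested.

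Car9 spanned the widest range, with 260 CPM in Ras line 1, 0.220 CPM in Ras line 2 and 0.645, 12.6 and 5.88 CPM in the PDGF lines. Its log2 fold of Ras over PDGF lines, 4.49 (SE 2.41), turned to -4.84 without Ras line 1. Slc16a3 stood at 160 and 3.92 CPM in Ras lines 1 and 2 and at 82.7, 3.49 and 95.4 CPM in the PDGF lines. Slc2a1 stood at 318 and 50.7 CPM, and at 108, 26.9 and 104 CPM. Both transporters were lowest in Ras line 2 and PDGF line 2, whereas the PDGF line with the lowest Car9 was line 1.

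Pdk1, the kinase that keeps pyruvate out of mitochondria, stood at 249 and 24.4 CPM in the Ras lines and at 110, 35.7 and 119 CPM in the PDGF lines. Ldha stood at 1121 and 397 CPM and at 737, 249 and 826 CPM, and its log2 fold between drivers was 0.44 (SE 0.70). Eno2 was highest in PDGF line 1, with 44.7 and 35.8 CPM in the Ras lines against 307, 26.9 and 129 CPM (log2 fold -1.86, SE 1.03). Each of these had its lowest level in Ras line 2 or PDGF line 2.

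Bnip3 stood at 330 and 43.0 CPM in the Ras lines and at 251, 68.8 and 280 CPM in the PDGF lines, with a log2 fold of 0.03 (SE 1.03). Egln3, the prolyl hydroxylase that HIF itself induces, stood at 166 and 34.1 CPM and at 63.2, 13.3 and 55.0 CPM. Ankrd37, a small HIF target, stood at 16.6 and 1.29 CPM and at 22.3, 2.72 and 20.6 CPM. Of the factors themselves, Hif1a went against this order in the PDGF lines, with 387 and 313 CPM in the Ras lines and 221, 485 and 255 CPM in PDGF lines 1 to 3. Epas1 followed it at 63.2 and 43.4 CPM and at 50, 14.5 and 29.8 CPM. Members for which PDGF line 2 was not the lowest of its group were Ldhb, Hif1a, Pfkm, Mxi1 and Car9.

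**Figure D4:**
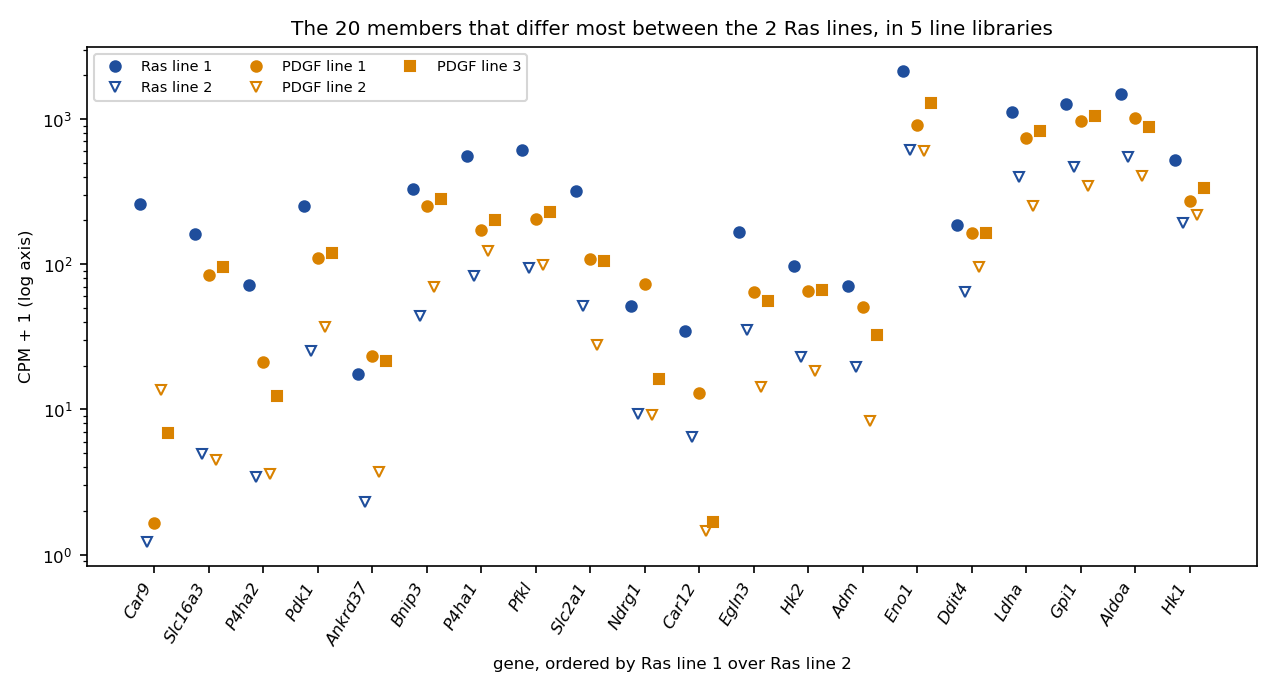
CPM + 1 (log axis) of the 20 members with the largest ratio of Ras line 1 to Ras line 2, in each of the 5 line libraries, 1 marker per library. That choice places Ras line 2 below Ras line 1 in each row, and PDGF line 2 lies below PDGF lines 1 and 3 in each row other than Car9.

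Without Ras line 2 the count of genes called between drivers went from 0 to 2111, and 1 member was among them, P4ha1, a collagen prolyl hydroxylase (log2 fold 1.87, edgeR adjusted p = 0.0357). Without Ras line 1 the median of the members was -0.60. Of the further pathway genes, 0 of 17 glycolysis, 0 of 27 hypoxia, 0 of 7 pentose phosphate and 0 of 22 TCA cycle and respiration genes passed the test between the lines, and 20 of the 22 had folds above 0.

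Vehicle Ras tumours were set beside the Ras lines by joining raw counts of both tables on gene symbols, so table, preparation and the mix of cells cannot be told apart from tissue against culture. Of the members, 1 of 40 was higher in the tumours (5.63% of 19141 genes were) and 0 of 40 lower (2.64%). Pfkp was the member called, with 219, 195, 246 and 245 CPM in the tumours against 70.2 and 53.4 CPM in the lines (log2 fold 1.83, SE 0.25, edgeR adjusted p = 0.0132). It was not called without vehicle library 3. At an unadjusted p under 0.05 stood 4 members (29.1% of all genes). Groups did not overlap for 3 members higher in the tumours (23.5% of all genes) and 3 lower (17.3%). Above 0 stood 12 members (51.1% of all genes), and the median log2 fold was -0.32 against 0.021 over all genes.

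Beside Pfkp, the members higher in all tumours were Ndrg1, at 167 ± 113 CPM (SD, n = 4) against 29.5 ± 29.9 CPM (SD, n = 2; log2 fold 2.46, SE 0.99, edgeR adjusted p = 0.168), and Slc16a1. Lower in all tumours was Kdm3a, a histone demethylase induced by HIF, at 80.1 ± 12.5 against 135 ± 49.6 CPM (log2 fold -0.80, SE 0.30, edgeR adjusted p = 0.145). Pfkfb3, which makes the activator of phosphofructokinase, stood at 36.8 ± 11.1 against 76.6 ± 42.3 CPM (log2 fold -1.13, SE 0.43, edgeR adjusted p = 0.148). Hif1a had the third set of groups that did not overlap (log2 fold -0.39, SE 0.22). Neither Car12 (log2 fold -2.17, SE 1.04), Pfkm (-0.88, SE 0.44) nor Eno2 (1.87, SE 1.05) passed the test.

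Some of the other members depended on which line was used. Slc2a1 had a log2 fold of 0.88 (SE 0.71), which was 2.85 without Ras line 1 (edgeR adjusted p = 0.00913), when 4 members were called higher. Ldha stood at -0.23 (SE 0.52), Car9 at -1.81 (SE 1.85), Bnip3 at -0.65 (SE 0.84) and Epas1 at 0.52 (SE 0.50), and the first 3 of these turned sign without Ras line 1. Leaving out a single library moved the number of genes called between 302 and 3614. Of the further pathway genes, Hk3, Eno3, Bhlhe41, Angptl4 and Nos2 rose and Stc1 fell.

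The 10x library held 59.3 M UMIs (unique molecular identifiers, 1 per captured RNA molecule) in 4384 barcodes, of which 3320 were kept with a median of 8351 UMIs. The members were left out of the genes used for clustering. Of 15 clusters, 12 held at least 50 cells, and 7 of the 15 carried enough of their class's markers to be named. Levels are summed UMIs of a cluster per M UMIs, with exact Poisson 95% intervals that cover counting error only. With 1 library there is no test, and cells are not replicates. Of the 39 members with at least 50 UMIs, 12 were highest in the monocyte-derived macrophage-like cluster (115 cells) and 7 in the neutrophil-like cluster (80 cells). The astrocyte-like cluster (338 cells) and a cluster of 55 cells held the maximum of 6 each. These counts rank the levels themselves, and for some members, such as Gapdh and Pkm, the interval of the highest cluster overlaps the next. The share of all genes with their maximum in each cluster was not computed, so the counts are no sign of enrichment of the members. In the neutrophil-like cluster, which held 248228 UMIs, the maximum of Pdk1 rested on 17 UMIs and those of Kdm3a and Mxi1 on 26 each. The cluster of 55 cells was led by Igfbp7 and Mgp and carried 8 of 8 endothelial markers. Its 10 leading genes held Col1a1, Dcn and Rgs5, genes of fibroblasts and pericytes, beside the endothelial Cldn5, so it was left unnamed. The astrocyte-like cluster carried 5 of 8 astrocyte markers and was led by Lcn2, Crispld2 and Tagln. Whether its cells were astrocytes or tumour cells was not tested.

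The members summed to 2281 per M in the erythroid-like cluster, where haemoglobin RNA took 70.3% of the UMIs, and to 13607 per M in the macrophage-like cluster, the highest. In that cluster Gapdh stood at 3172 per M, Pkm at 1252 and Ldha at 1011. Microglia-like cells (433) were close behind for Gapdh at 3080 per M and Ldha at 912 per M. Free RNA of lysed cells can add UMIs to every cluster, and the neutrophil genes S100a8 and S100a9 together stood at 25682 per M in the neutrophil-like cluster and at 1.55 to 160 per M in the other large clusters.

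Hk2 was a gene of the myeloid clusters. It stood at 399 per M (324 to 486) in neutrophil-like, 263 per M (237 to 292) in macrophage-like and 166 per M (156 to 178) in microglia-like cells. In each of the other large clusters it was at or under 46.0 per M. The microglia-like value was 97.3 to 104 per M under the 3 other settings tried. Egln3 followed, with 383 per M (310 to 468) in neutrophil-like cells, 128 per M (109 to 148) in macrophage-like and 50 per M (44.2 to 56.3) in microglia-like cells. Slc16a3 stood at 282 per M (254 to 311) in macrophage-like, 238 per M (181 to 307) in neutrophil-like and 150 per M (140 to 160) in microglia-like cells. The intervals of the first 2 overlap, so their order was not resolved at this depth. Slc2a3 was highest in neutrophil-like cells at 157 per M (112 to 215) and stood at 4.44 per M (1.63 to 9.65) in macrophage-like cells.

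Slc2a1 was highest in the unnamed cluster with endothelial markers, at 582 per M (546 to 620), ahead of macrophage-like cells at 267 per M (240 to 296). That macrophage value moved to 163 per M when barcodes needed at least 1000 UMIs. Epas1 had its maximum in the same unnamed cluster, at 266 per M (242 to 292), and 1 UMI in macrophage-like cells, a level of 0.739 per M (0.0187 to 4.12). Adm was highest there too, at 215 per M (193 to 238), as was Slc16a1 at 152 per M (133 to 171). Hif1a had another order, with 481 per M (445 to 520) in macrophage-like cells, 307 per M (281 to 335) in the unnamed cluster and 270 per M (209 to 343) in neutrophil-like cells.

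Ldhb was highest in a large unnamed cluster of 581 cells, led by Clca3a1 and Matn4, at 494 per M (484 to 505), and lowest of the large clusters in macrophage-like cells at 32.5 per M (23.6 to 43.7). Bnip3 was highest in neutrophil-like cells, at 270 per M (209 to 343). Bnip3l, which removes mitochondria from maturing red cells, stood at 388 per M (338 to 443) in erythroid-like and 371 per M (299 to 455) in neutrophil-like cells. Higd1a, a mitochondrial protein of the hypoxia response, was highest at 391 per M in a cluster of 258 cells led by Nppb and Nefl. Car9 reached at most 5.91 per M in any large cluster, with 8 UMIs behind that value.

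**Figure D5:**
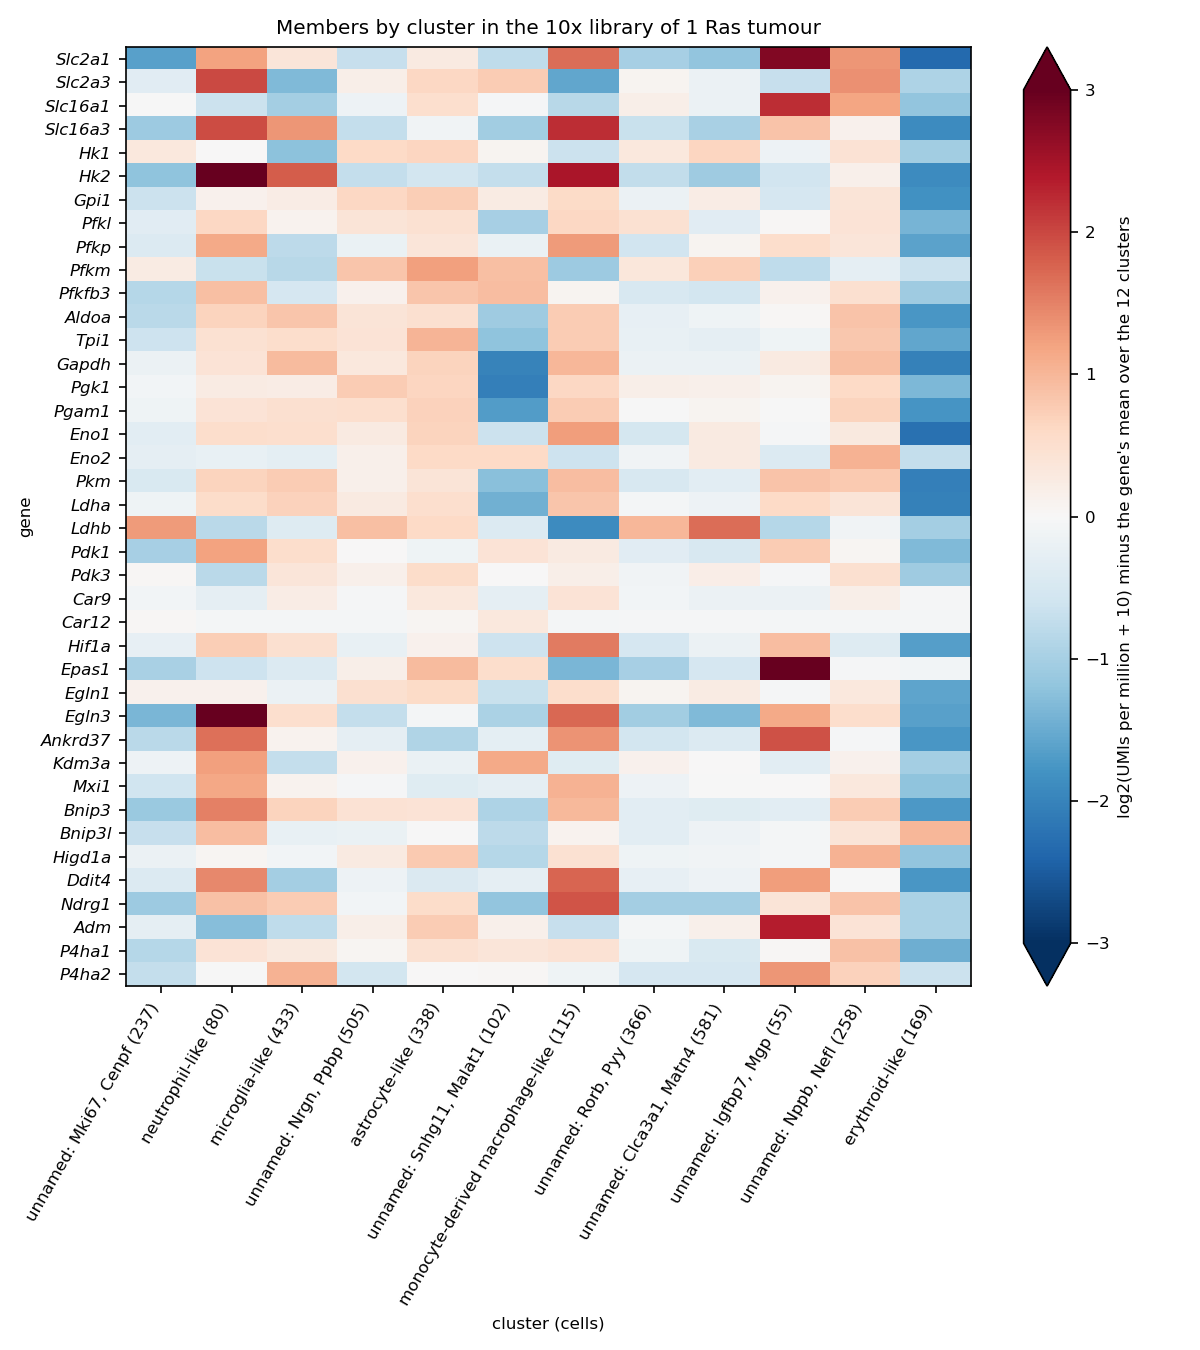
Heat map of the members (rows) in the 12 clusters of at least 50 cells of the 10x library (columns), coloured by log2(UMIs per M + 10) minus the mean of that gene over the 12 clusters. Hk2 and Egln3 stand out in the 3 myeloid columns, and Slc2a1 and Epas1 in the unnamed column of Igfbp7 and Mgp, the cluster with endothelial markers.

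The Drop-seq library held 9.67 M UMIs in 5000 barcodes, of which 4901 were kept with a median of 1396 UMIs. It shared 0 barcodes with the 10x library. Of 8 clusters, 2 were named, oligodendrocyte-like (624 cells) and endothelial-like (57 cells). The oligodendrocyte-like cluster carried 7 of 7 markers, and its leading genes also held Apod, Klk6 and Otos. Whether it held tumour cells was not tested. The endothelial-like cluster carried 8 of 8 markers, though Igkc and Ighm, immunoglobulin genes, led it. It was not named under any of the 3 other settings tried. Slc2a1 stood at 226 per M (149 to 329) and Epas1 at 217 per M (142 to 319) in that cluster. Slc16a1 at 176 per M (109 to 268) and Adm at 142 per M (82.8 to 228) were highest there too. The interval of Epas1 overlapped that of a cluster of 56 cells with pericyte markers, at 100.3 per M (48.1 to 184). All 4 were also among the 6 members that were highest in the unnamed 10x cluster with endothelial markers.

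In a Drop-seq cluster of 178 cells with Lyz2, Ctss and C1qa, genes of macrophages and microglia, Hk2 stood at 117 per M (77.1 to 170), Slc16a3 at 65.0 per M (36.4 to 107) and Hif1a at 121 per M (80.6 to 175). For Hk2 this interval lay above those of the other 7 clusters, while those of Slc16a3 and Hif1a overlapped others. The largest cluster, of 1325 cells, was led by Wfdc18, Scg2 and Areg. It was highest for 19 of the 37 members with at least 50 UMIs, and the share of all genes highest there was not computed. Among the 19, Ldha stood at 802 per M (773 to 832) and Bnip3 at 163 per M (150 to 177). Ldhb stood at 445 per M (403 to 489) in oligodendrocyte-like cells and at 400 per M (369 to 433) in an unnamed cluster of 1092 cells, an order not resolved at this depth. Over all kept cells, Gapdh stood at 1862 per M by 10x and 16.7 by Drop-seq, and Pgam1 at 558 and 26.6, while Pgk1 stood at 67.7 and 153. Levels of single members are therefore not comparable between the 2 methods.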

How the data were processed

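RNA was measured in 16 bulk and 2 single-cell libraries. The authors deposited raw counts per gene symbol for the bulk libraries and counts of UMIs per gene and barcode for the single cells. Per the submitters' processing notes, which give no roles, the build was GRCm38 and the tools were STAR 2.6.1e with featureCounts 1.6.2, Cell Ranger, and cutadapt 1.9.1 with Trim Galore 0.4.2 and FastQC 0.11.7. From the tumours and from the lines, 27 entries with dates for names were left out (at most 0.360% of a library), and 1 unnamed entry in the CD11b table. The line table held 5 columns that matched no sample and were not used. Even numbers made up 62.8% to 69.4% of counts from 1 to 10 in the tumour and line tables and 39.9% to 41.9% in the CD11b table. The counting rule behind that difference is not given in the sources used here.

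Each comparison was fitted on all genes with edgeR 4.0.16 in R 4.3.3 (quasi-likelihood test, TMM scaling, its default filter on low counts, robust estimation, no covariates). The threshold for a call was 0.05 after Benjamini-Hochberg adjustment over every gene tested, and "rose" or "fell" is used of called genes. CPM values are counts over the library's total, and errors of groups are SDs. DESeq2 1.42.0 and the other settings of the closing section were alternatives. The fits were tested on simulated counts. Members and lists were chosen with earlier results of these data known. Named were, per comparison, the 8 members with the smallest p, all called members, and Slc2a1, Ldha, Car9, Bnip3, Hif1a and Epas1 throughout. Other members with values were chosen after these were seen. Some genes of the further lists are not reported here.

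Single cells were processed with scanpy 1.11.5 in Python 3.11.15. For 10x a barcode needed 500 UMIs and 300 genes, for Drop-seq 300 UMIs and 200 genes, and in both no more than 20% of UMIs could be mitochondrial. Leiden clusters at resolution 0.5 used 30 principal components of 2000 variable genes without the members. A class name needed at least 3 markers at 2-fold or more, and among the 10 leading genes no more markers of another class than of its own. A second condition, that these be at least 50% of the class's markers, was added with the clusters already known. No doublet caller was run, and an alternative left out the 5% of barcodes with the most UMIs. The near-identical copy Eno1b could take reads of Eno1, and summing both changed no call. Positions and promoter windows are those of GENCODE and RefSeq for GRCm38.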

Additional observations from a re-analysis of the deposited data

Results flagged for a closer look

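Over 80 groups of values, 1 per member and treatment in the Ras tumours, 6 held a library far from the other 3 of its group, and chance gives about 1 in 20. Of these, 4 were in vehicle library 4. Its Car9 level was 101 CPM against 11.9 to 25.6 CPM, its Ndrg1 level 335 CPM against 93.1 to 128 CPM, and its level of Tpi1, the triose phosphate isomerase, 629 CPM against 378 to 417 CPM. Its Pfkfb3 level was low, at 20.2 CPM against 41.0 to 43.3 CPM. In PLX3397 library 3, Pfkfb3 was also low, at 32.0 CPM against 43.4 to 44.5 CPM. In PLX3397 library 1, Eno2 stood at 499 CPM against 100.0 to 143 CPM, in the tumour with the highest sum of neuron markers.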

How the results depend on the processing

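Of the values recomputed under other settings, 596 kept their direction and side of the threshold or lay within the spread, 30 moved, 40 turned sign, 7 passed the threshold newly and 2 no longer passed it. With DESeq2 the genes called in the Ras tumours were 169 of 18366, with 0 of 40 members. In the CD11b-positive cells they were 1959 of 15052, with 10 of 39 members, adding Slc2a3, Slc16a1, Hif1a, Egln3, Adm and P4ha2. Between the lines they were 2110 of 17475, with 0 of 40 members. For tumours against lines they were 4913 of 19141, with 2 of 40 members, adding Ndrg1. With no filter on low counts they were 1, 1907 and 1 in the first 3. The Slc2a1 log2 fold in the Ras tumours was 0.0071 with DESeq2 size factors and with DESeq2. Same-numbered samples did not all deviate together (correlations of -0.418 to 0.449 in the Ras tumours), so the numbers share only a label. With the replicate number as a block, 0 genes were called in the Ras tumours, 0 between the lines and 0, with 0 members, for tumours against lines, where Pfkp was 1.70 (edgeR adjusted p = 0.135) and Car9 0.33, and between the lines Bnip3 was -0.080. A term for Ddx3y, and Eno1 summed with Eno1b, were chosen after seeing the data and changed no call. The causes were not tested.

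A line left alone in its group was taken to vary like the other libraries. Leaving out 1 library at a time gave log2 folds in the Ras tumours of -0.22 to 0.32 for Epas1, -0.14 to 0.36 for Ldha, -0.093 to 0.69 for Bnip3, -0.59 to 0.30 for Ndrg1, -0.15 to 0.17 for Slc2a1, -0.73 to 0.88 for Car9, -0.063 to 0.66 for Pfkm, -0.13 to 0.83 for Ldhb and -0.019 to 0.29 for Hif1a. The ratio differences were -1.53 to 0.13 for Eno1 over Eno2, -1.11 to 0.29 for Ldha over Ldhb and -0.38 to 0.084 for Slc16a3 over Slc16a1. In the CD11b-positive cells, without a test, they were -0.36 to 0.052 for Ldha, -0.060 to 0.69 for Slc2a1 and -0.060 to 0.65 for Bnip3. Between the lines, genes called were 0 to 2111, members called higher 0 to 1 and the members' median -0.60 to 0.84. Log2 folds there were -4.84 to 5.47 for Car9, -0.37 to 2.03 for Egln3, -0.65 to 2.11 for Slc2a1, -0.61 to 1.01 for Ldha, -2.22 to 0.84 for Bnip3 and -0.037 to 0.64 for Hif1a. For tumours against lines, genes called were 302 to 3614, members called higher 0 to 4 and lower 0 to 1, and the members' median -0.84 to 0.79. Log2 folds there were -0.83 to 0.80 for Ldha, -3.05 to 7.51 for Car9 and -1.49 to 1.58 for Bnip3, while Pfkp stayed between 1.59 and 2.11.

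In the 10x library, Slc2a1 in macrophage-like cells moved to 163 per M with a minimum of 1000 UMIs and to 163 per M without the 5% of barcodes with the most UMIs. Hk2 in microglia-like cells moved to 104, 97.7 and 97.3 per M under these settings and at resolution 1.0. The endothelial-like Drop-seq cluster was not named under these 3 settings, which gave no value there. The share of member genes with a promoter match was 69.4% with ACGTG alone.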
